A study of Mus musculus with 24 samples.

Results

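Aminoacyl-tRNA synthetases load each amino acid onto its transfer RNA, the first step of protein synthesis. Most amino acids have a cytosolic enzyme, which serves the ribosomes of the cell body, and a separate mitochondrial enzyme, which serves the ribosomes that make the respiratory chain subunits encoded in mitochondrial DNA. Both kinds are encoded in the nucleus, and by the naming convention the mitochondrial gene ends in 2. Several cytosolic enzymes are held together in the multisynthetase complex, and transcription of many cytosolic synthetase genes is known to be raised by ATF4, the transcription factor of the amino acid response.

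The genes were taken from the deposited table by name, as a 1-letter amino acid code followed by "ars" with its usual endings, plus Eprs, Farsa, Farsb and Fars2. This rule, which used no measured value, found 38 of the 14293 genes in the table. Of these, 19 were cytosolic and 17 mitochondrial, and Gars and Kars, for glycine and lysine, encode the enzymes of both compartments from 1 gene. The multisynthetase complex is represented by 8 members (Eprs, Iars, Lars, Mars, Qars, Rars, Dars and Kars). By the fold of the catalytic domain, the cytosolic genes comprised 10 of class I and 9 of class II and the mitochondrial genes 9 and 8.

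RNA was measured in 24 livers of mice with NASH (nonalcoholic steatohepatitis, in which a fat-laden liver is inflamed and scarred), in 3 groups of 8. One group received vutiglabridin, a synthetic relative of the licorice flavonoid glabridin that the series title calls an agonist of paraoxonase-2, one received semaglutide, which activates the GLP-1 receptor, and one received vehicle. The labels give no strain, sex, age, diet, dose, duration or animal, so the p-values rest on the spread among these samples alone, and that spread may be technical. No healthy liver was among the samples, so all 3 groups share the disease.

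The low values of the table implied 5.98 to 15.2 M fragments (M, mega) per vutiglabridin library, 9.32 to 12.4 M per semaglutide library and 12.0 to 19.8 M per vehicle library. In the semaglutide columns all 114344 values were written with a trailing space, against 0 in the other groups, so the drug and a separate preparation of those columns cannot be told apart. Summed levels of 8 hepatocyte markers were 35281 to 49883 FPKM (fragments per length of exon and per mapped fragments of the library) in vutiglabridin livers, 35357 to 46988 in semaglutide livers and 31577 to 39740 in vehicle livers. Those of 8 macrophage markers were 136 to 301, 141 to 282 and 221 to 546 FPKM in the same order, and those of 6 stellate cell and fibroblast markers 76.5 to 131, 79.4 to 134 and 128 to 189 FPKM. Of these markers, 4 hepatocyte genes were higher and 6 macrophage and 4 stellate genes lower with vutiglabridin than in vehicle livers, and 5, 4 and 3 with semaglutide (limma adjusted p under 0.05). Over all genes, 6.53% passed as higher and 8.78% as lower with vutiglabridin, and 14.3% and 12.7% with semaglutide. Lower with vutiglabridin were also 2 of 5 cholangiocyte, 2 of 3 T and NK cell and 1 of 3 B and plasma cell markers tested. With semaglutide 0 of each were. Of 5 endothelial markers, 1 was higher with vutiglabridin and 2 with semaglutide. Among the 6 pancreatic acinar genes, a cell type rich in synthetase transcripts, only Cela1 was in the table, at 6.67 FPKM or less. Cela1 differed by −0.50 between semaglutide and vehicle livers (limma adjusted p = 0.000362) and by 0.32 between vutiglabridin and semaglutide livers (0.0154). In bulk tissue fewer cells of a type and less RNA per cell cannot be told apart, and the part of cell composition in the results below was not tested.

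The promoters of the synthetase genes were searched for TGATGNAA, the core of the amino acid response element through which ATF4 acts, on both strands. In RefSeq promoters of GRCm38, from 250 bases before to 50 bases after the start of a gene, these letters occurred in 1219 of 27025 genes (4.51%). RefSeq promoters were matched for 28 of the 38 members. The motif occurred in 4 of 12 matched cytosolic genes, in Gars among the genes of both compartments, and in 0 of 14 mitochondrial genes. The 30-base windows below are shown because they mark the cytosolic members, and Gars, with these letters. The motif is in capitals and each window is read along its gene's strand, where TTNCATCA is the motif on the opposite strand.
Yars (chr4:129189895-129189924, plus strand): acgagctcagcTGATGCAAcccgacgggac
Gars (chr6:55037960-55037989, plus strand): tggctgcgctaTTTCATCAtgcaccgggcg
Aars (chr8:111033840-111033869, plus strand): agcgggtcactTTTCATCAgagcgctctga
Iars (chr13:49682126-49682155, plus strand): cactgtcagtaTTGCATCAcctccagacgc
Tars (chr15:11399655-11399684, minus strand): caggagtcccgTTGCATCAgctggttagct
A match is a description of the letters and not of a bound site, and genes with no match in this window may have one elsewhere.

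Cytosolic synthetase transcripts were the more abundant in these livers, with Lars2 as an exception. Over all 24 samples the cytosolic genes had a median level of 9.97 FPKM and the mitochondrial genes 4.73 FPKM, both per length of exon. Nars, the asparagine enzyme, was the highest cytosolic gene at 37.2 FPKM, followed by Aars for alanine at 26.6 and Dars for aspartate at 22.9. The lowest cytosolic genes were Cars for cysteine at 5.27, Farsa, the alpha subunit of the phenylalanine enzyme, at 5.16, and Tarsl2, a second threonine enzyme, at 2.37 FPKM. Gars and Kars stood at 20.9 and 14.6 FPKM.

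Lars2, the mitochondrial leucine enzyme, had the highest mean of all 38 genes over the 24 samples, at 72.8 FPKM, a rank that rests on the semaglutide group. It averaged 33.7 FPKM in vutiglabridin livers, 144 in semaglutide livers and 40.3 in vehicle livers, where Nars averaged 38.9, 34.6 and 38.2 FPKM. The next mitochondrial genes were Iars2 for isoleucine at 11.8 FPKM and Hars2 for histidine at 7.65 FPKM. At the low end stood Pars2 for proline at 1.33, Wars2 for tryptophan at 1.31 and Mars2 for methionine at 0.438 FPKM. Mars2 was at 0.380 ± 0.104 FPKM in vutiglabridin livers, 0.515 ± 0.118 in semaglutide livers and 0.418 ± 0.129 in vehicle livers (SD, n = 8 each). It did not reach 0.5 FPKM in 8 samples and was the only member left out of the tests.

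**Figure D1:**
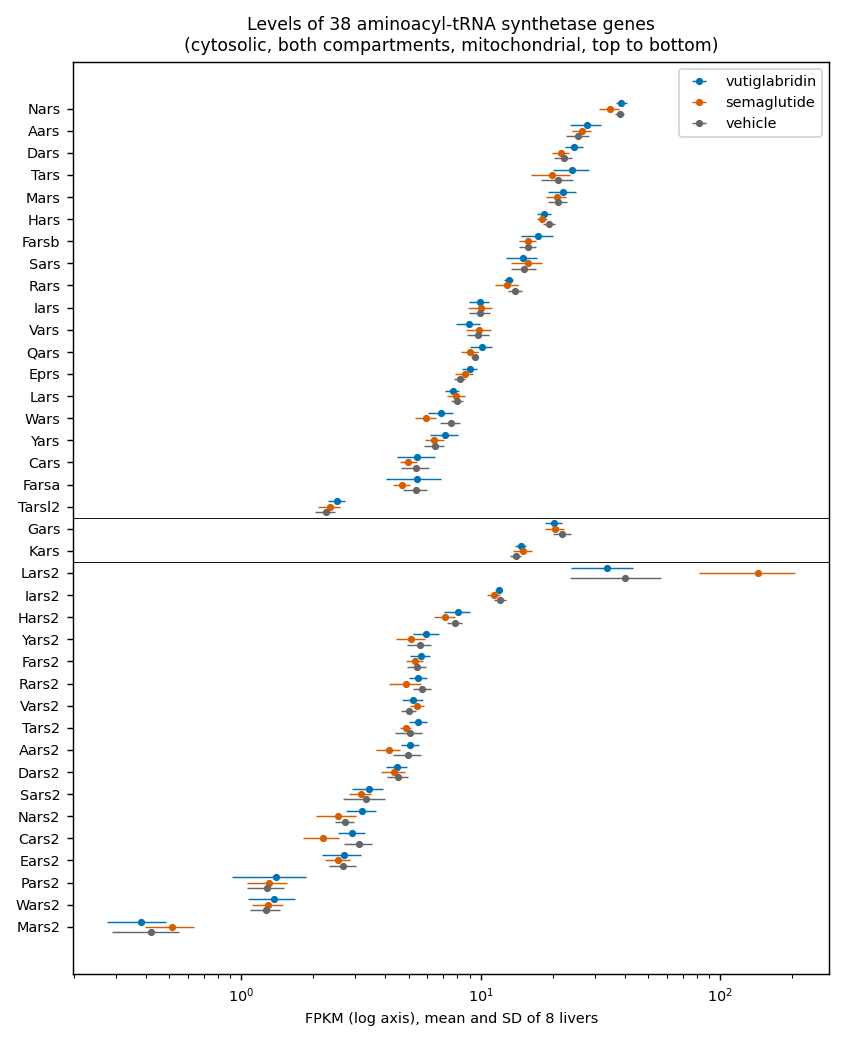
Level of each of the 38 synthetase genes (FPKM on a log axis, mean and SD of 8 livers) in vutiglabridin, semaglutide and vehicle livers, with cytosolic genes at the top, Gars and Kars in the middle and mitochondrial genes at the bottom. The groups lie close together for nearly every gene, and Lars2 in semaglutide livers stands apart at 144 FPKM.

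For 17 pairs of a cytosolic and a mitochondrial gene for the same amino acid, the cytosolic gene was higher in all 24 samples in 13 pairs. Eprs was paired both with Ears2 for glutamate and with Pars2 for proline. The ratio was widest for methionine, where Mars over Mars2 averaged 63.2 in vutiglabridin livers, 42.4 in semaglutide livers and 55.4 in vehicle livers. Tyrosine (Yars above Yars2 in 23 samples), phenylalanine by its alpha subunit (Farsa above Fars2 in 9 samples) and isoleucine (Iars above Iars2 in 1 sample) were mixed. Farsb, the beta subunit of the phenylalanine enzyme, was not paired. It was at 13.2 FPKM or more in each sample, where Fars2 reached at most 6.65 FPKM. Leucine was reversed, with Lars2 above Lars in all 24 samples. The ratio of Lars to Lars2 averaged 0.247 in vutiglabridin livers, 0.0633 in semaglutide livers and 0.230 in vehicle livers. Low values of genes with short exons followed the summed exon length, and whether values of longer genes did was not tested. That length is 11089 bases for Lars2 and 18102 for Eprs, against 3894 and 4906 for their longest coding transcripts. If it was used, exons outside those transcripts lower the FPKM of both genes. For Mars2 both lengths are 11294 bases.

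The comparison of vutiglabridin with vehicle asks whether that drug changed synthetase transcripts in the diseased liver. Of the 37 tested genes 0 passed limma's test at an adjusted p under 0.05, where 15.3% of all 11562 genes tested passed, 6.53% higher and 8.78% lower. At an unadjusted p under 0.05 there were 3 (Eprs, Dars and Nars2), and in 0 genes were the groups free of overlap, against 1.74% of all genes. The differences in log2(FPKM + 1) ran over the 37 genes from −0.21 to 0.18 with a median of 0.03, beside 0.01 for all genes. The median was 0.02 over the cytosolic and 0.03 over the mitochondrial genes. With each library rescaled to the same FPKM total (TPM), the median of all genes moved to −0.13, those of the cytosolic and mitochondrial genes to −0.13 and −0.11, and 7 members passed, all lower (Hars, Gars, Wars, Rars, Vars, Iars2 and Lars). The calls over all genes were 755 higher and 1015 lower as deposited, and 233 higher and 2731 lower under TPM.

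The members nearest to a call were one of each class. Eprs, which joins the glutamate and proline enzymes in 1 protein of the multisynthetase complex, had 8.12, 9.08 and 10.1 FPKM in vutiglabridin livers and 7.54, 8.12 and 8.67 FPKM in vehicle livers (lowest, median and highest). The groups overlapped, with 5 of 8 vutiglabridin values above every vehicle value. The difference was 0.12 on the log2 scale (95% interval 0.02 to 0.23, limma adjusted p = 0.116), and −0.023 under TPM. Nars2, the mitochondrial asparagine enzyme, had 2.50, 3.30 and 3.79 FPKM in vutiglabridin livers and 2.31, 2.69 and 3.09 FPKM in vehicle livers. Those groups overlapped as well, with a log2 difference of 0.18 (0.02 to 0.34, adjusted p = 0.131).

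The 5 genes with the amino acid response motif did not pass the test with vutiglabridin as deposited. Their log2 differences from vehicle were 0.11 for Aars, 0.12 for Yars, 0.18 for Tars, 0.00 for Iars and −0.11 for Gars, with adjusted p from 0.248 to 0.978. Under TPM they were −0.04, −0.02, 0.03, −0.16 and −0.27 in the same order, and Gars passed (adjusted p = 0.00789). Tars had 24.2 ± 4.16 FPKM in vutiglabridin livers, 19.96 ± 3.78 in semaglutide livers and 21.2 ± 3.26 in vehicle livers (SD, n = 8 each). With semaglutide the differences of the 5 genes from vehicle ran from −0.09 to 0.05, with adjusted p from 0.284 to 0.986. The intervals of these differences reached 0.41 for Tars with vutiglabridin, so a change of that size lay within them.

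**Figure D2:**
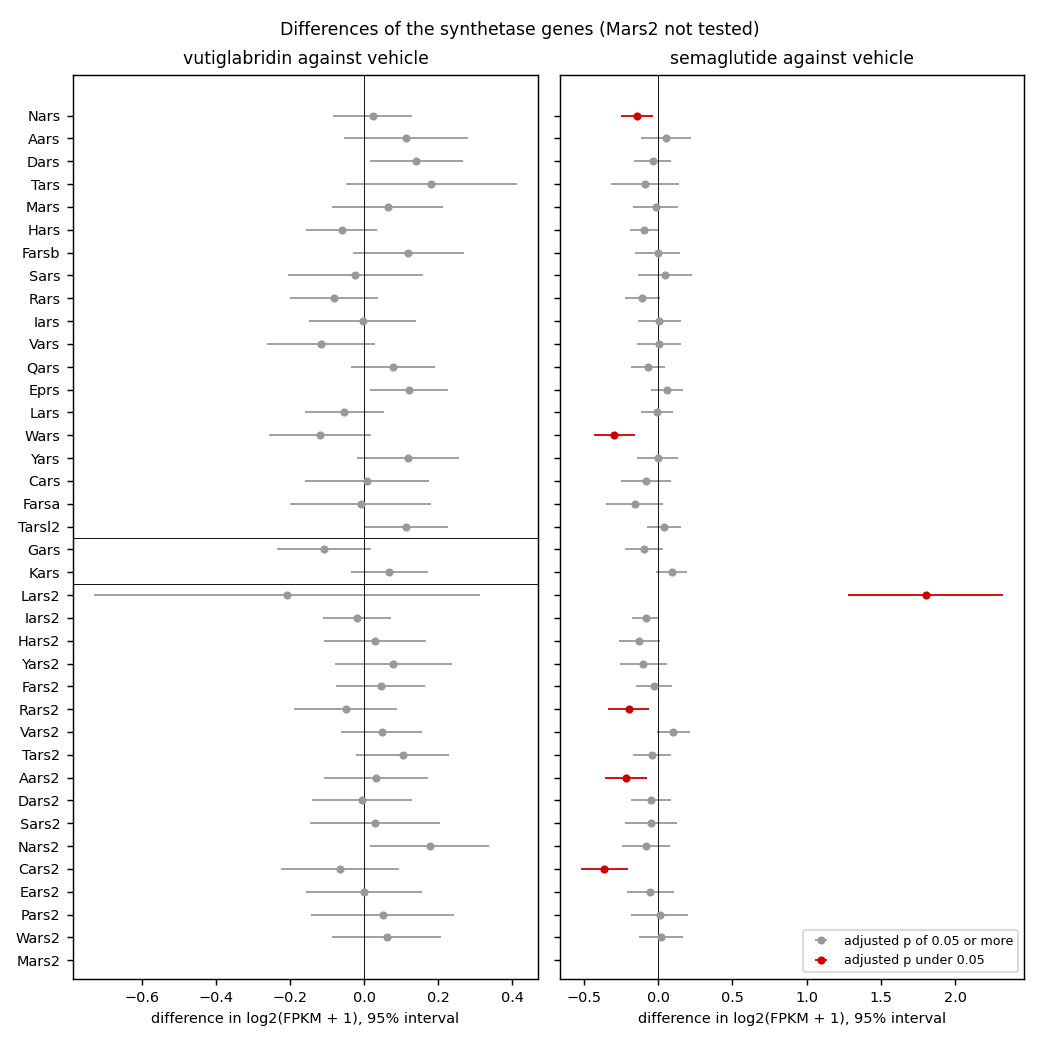
Differences in log2(FPKM + 1) of the 37 tested synthetase genes with 95% intervals, vutiglabridin against vehicle at left and semaglutide against vehicle at right, with genes in the order of their level within each class. Red marks an adjusted p under 0.05. At left none is red, and at right 6 are, with Lars2 far to the right at 1.80 and the other 5 below 0.

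The same question was put to semaglutide. Lars2 transcripts were several times higher in semaglutide livers, and 5 other synthetase genes were lower by a small amount. Of the 37 tested genes 6 passed (16.2%), 1 higher and 5 lower, where 27% of all genes passed, 14.3% higher and 12.7% lower. The higher gene and 3 of the lower ones (Cars2, Aars2 and Rars2) were mitochondrial, and the other 2 lower ones (Wars and Nars) cytosolic. The median difference was −0.02 over the cytosolic and −0.05 over the mitochondrial genes, beside −0.01 over all genes, and −0.07, −0.11 and −0.07 under TPM. The calls over all genes were 1650 higher and 1474 lower as deposited, and 1202 higher and 2116 lower under TPM. In 0 members were the 2 groups free of overlap, against 5.83% of all genes.

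Lars2 lies on chromosome 9 at 123366927 to 123462666 on the plus strand (GRCm38, GENCODE M21). Its values were 146, 274, 63.9, 85.9, 156, 134, 148 and 147 FPKM in semaglutide livers 1 to 8, and 31.7, 69.0, 58.8, 44.2, 19.1, 27.7, 40.6 and 31.6 FPKM in vehicle livers 1 to 8. In vutiglabridin livers 1 to 8 they were 37.1, 44.1, 28.7, 40.1, 18.4, 22.7, 45.1 and 33.4 FPKM. Semaglutide livers were thus the high ones, 7 of 8 above every vehicle liver, and semaglutide replicate 3 lay below vehicle replicate 2. Means were 144 ± 62.1 FPKM in semaglutide livers and 40.3 ± 16.6 FPKM in vehicle livers (SD, n = 8 each), a 3.58-fold higher mean. The log2 difference was 1.80 ± 0.25 (SE; 95% interval 1.28 to 2.32, limma adjusted p = 1.15e-05). Lars2 passed in all 27 alternatives, with log2 differences from 1.66 to 1.95. Its longest coding transcript shares a run of 52 bases with Gm15564 and one of 41 bases with AA474408, both outside the table, in its 3′ part. The part of reads from such sequences in the Lars2 values was not tested.

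Cars2, the mitochondrial cysteine enzyme, lies on chromosome 8 at 11513977 to 11550783 on the minus strand. It had 1.60, 2.17 and 2.65 FPKM in semaglutide livers and 2.49, 3.14 and 3.75 FPKM in vehicle livers (lowest, median and highest). All 8 semaglutide values lay below the vehicle mean and 5 below every vehicle value. The mean fell by 29.1%, with a log2 difference of −0.36 ± 0.08 (adjusted p = 0.00114). Cars2 shares 5.83% of its exon length with Naxd on the opposite strand, which had 11.1 ± 1.02 FPKM in semaglutide livers and 10.1 ± 0.705 in vehicle livers (SD, n = 8 each; log2 difference 0.12, limma adjusted p = 0.164).

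Wars, the cytosolic tryptophan enzyme, is known as the synthetase that interferon-gamma induces, and lies on chromosome 12 at 108860030 to 108894174 on the minus strand. It had 5.02, 5.79 and 7.11 FPKM in semaglutide livers and 6.42, 7.33 and 8.60 FPKM in vehicle livers. Of the semaglutide values 7 of 8 lay below every vehicle value, and the mean fell by 20.9% (log2 difference −0.29 ± 0.07, adjusted p = 0.00204). Of 22 tested genes of the interferon-gamma response, 3 were higher and 3 lower with semaglutide (median −0.03), where 27% of all genes passed in either direction. With vutiglabridin 15 of those 22 were lower and 0 higher than in vehicle livers (median −0.36), where 15.3% of all genes passed. Against semaglutide livers 10 were lower and 0 higher (median −0.27), where 24.4% of all genes passed. With vutiglabridin Wars differed by −0.12 from vehicle (95% interval −0.26 to 0.02, limma adjusted p = 0.256), with 6.07, 6.61 and 8.73 FPKM in vutiglabridin livers. Against semaglutide livers Wars differed by 0.18 (0.04 to 0.31, adjusted p = 0.0575), the other way from the list's median. Ubd, a ubiquitin-like gene, was the lowest of that list, at −1.79 with vutiglabridin and −1.24 with semaglutide, both against the same vehicle samples. The highest difference in the list was 0.04 with vutiglabridin and 0.56 with semaglutide.

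The other 3 calls were smaller. Aars2, the mitochondrial alanine enzyme on chromosome 17 at 45506841 to 45520843, had 3.66, 3.97 and 5.03 FPKM in semaglutide livers and 4.08, 4.99 and 6.09 FPKM in vehicle livers (−0.22 ± 0.07, adjusted p = 0.0201). Rars2, the mitochondrial arginine enzyme on chromosome 4 at 34614957 to 34660167, had 4.18, 4.57 and 6.35 FPKM in semaglutide livers and 4.88, 5.70 and 6.44 FPKM in vehicle livers (−0.20 ± 0.07, adjusted p = 0.0314). Both lay mostly low in semaglutide livers, with 5 of 8 values below every vehicle value for each gene. The call of Rars2 was lost without vehicle replicate 2 or 8 or semaglutide replicate 2, 4, 5 or 6, at adjusted p from 0.0547 to 0.0677. Nars had 29.7, 34.3 and 38.9 FPKM in semaglutide livers and 36.2, 38.2 and 40.9 FPKM in vehicle livers (−0.14 ± 0.05, adjusted p = 0.0432). Its call was lost at adjusted p from 0.0525 to 0.0988 without any 1 of 11 samples (vehicle replicates 1, 2, 3, 4, 6 and 8 and semaglutide replicates 2, 3, 5, 7 and 8).

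**Figure D3:**
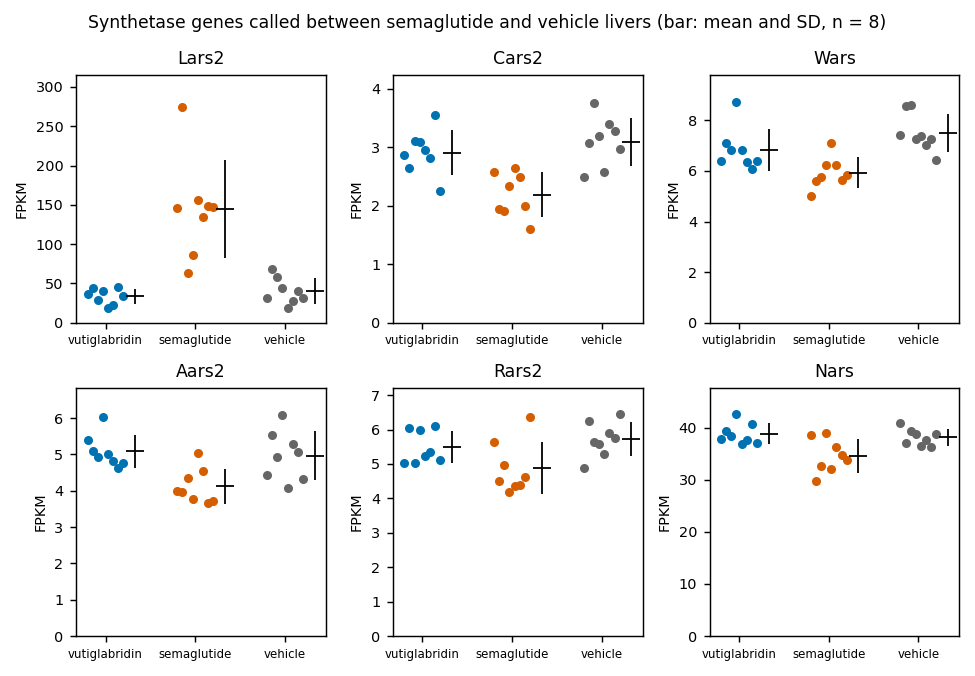
FPKM of the 6 synthetase genes that passed between semaglutide and vehicle livers, 1 point per liver in vutiglabridin, semaglutide and vehicle livers, with the mean and SD (n = 8) as a bar beside the points. Lars2 is high in semaglutide livers, where replicate 2 reaches 274 FPKM, and the other 5 genes are lower there with overlapping points.

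Most synthetase genes did not pass with semaglutide. The 17 cytosolic genes that did not pass differed by −0.16 (Farsa) to 0.06 (Eprs) on the log2 scale. Kars and Gars differed by 0.09 and −0.09. Among the 12 mitochondrial genes that did not pass, Vars2 for valine was the highest at 0.10 (95% interval −0.01 to 0.21, adjusted p = 0.158) and Hars2 the lowest at −0.13 (−0.26 to 0.01, adjusted p = 0.17).

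The drugs were also compared directly, so that a difference between them does not rest on 1 passing and the other not. Of the 37 genes 6 passed, 5 higher and 1 lower in vutiglabridin livers, where 24.4% of all genes passed, 11.9% higher and 12.6% lower. Lars2 was the 1 member without overlap (3.4% of all genes), with vutiglabridin values of 18.4 to 45.1 FPKM and semaglutide values of 63.9 to 274 FPKM, and a log2 difference of −2.01 ± 0.25 (adjusted p = 3.75e-06). The mean of vutiglabridin livers fell by 76.7% relative to that of semaglutide livers. This comparison shares its semaglutide samples with the one against vehicle.

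The 5 genes higher in vutiglabridin than in semaglutide livers were 3 mitochondrial and 2 cytosolic ones. Cars2 had 2.25, 2.91 and 3.56 FPKM in vutiglabridin livers and 1.60, 2.17 and 2.65 FPKM in semaglutide livers (0.30 ± 0.08, adjusted p = 0.00655). Aars2 had 4.63, 4.97 and 6.03 FPKM in vutiglabridin livers and 3.66, 3.97 and 5.03 FPKM in semaglutide livers (0.25 ± 0.07, adjusted p = 0.00886). For both, all 8 vutiglabridin values lay above the semaglutide mean. Nars2 had 2.50, 3.30 and 3.79 FPKM in vutiglabridin livers and 1.74, 2.44 and 3.34 FPKM in semaglutide livers (0.26 ± 0.08, adjusted p = 0.0176). Nars and Dars differed by 0.17 and 0.18 (adjusted p = 0.0209 and 0.035). Neither passed under TPM (0.378 and 0.385) or quantile normalization (0.326 and 0.299), and Aars2 and Nars2 did not pass under TPM (0.0616 and 0.102).

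The call of Nars was also lost without semaglutide replicate 2 (adjusted p = 0.0523), and those of Dars without vutiglabridin replicates 1, 5, 6 and 8 and semaglutide replicates 2, 3, 5 and 7 (0.0502 to 0.0715). The median difference between the drugs was 0.08 over the cytosolic genes and 0.08 over the mitochondrial genes, beside 0.01 over all genes. Under TPM these medians were 0.00, −0.01 and −0.08, and the calls over all genes were 596 higher and 2264 lower, against 1372 and 1454 as deposited.

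The ratio of summed cytosolic to summed mitochondrial transcripts was lower in semaglutide livers, and overlapped between all groups once Lars2 was set aside. Cytosolic genes summed to 274 ± 19.3 FPKM in vutiglabridin livers, 256 ± 14.6 in semaglutide livers and 265 ± 16.4 in vehicle livers (SD, n = 8 each). Mitochondrial genes summed to 106 ± 10.2, 210 ± 61.6 and 111 ± 18.2 FPKM in the same order. Lars2 made up 31.2 ± 6.60% of the mitochondrial sum in vutiglabridin livers, 66.3 ± 9.58% in semaglutide livers and 35.0 ± 8.80% in vehicle livers. The lowest semaglutide share was 49.8% and the highest vehicle share 49.2%.

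Without Lars2 the mitochondrial genes summed to 72.6 ± 2.27 FPKM in vutiglabridin livers, 66.0 ± 1.99 in semaglutide livers and 70.9 ± 2.57 in vehicle livers. As deposited, the semaglutide values (63.8 to 68.9) lay below all vutiglabridin values (69.6 to 76.3) and overlapped the vehicle values (67.5 to 74.95). Which groups overlap in this sum depends on the scale, and it was not rescaled to equal library totals. The FPKM totals were 344271 to 385601 in vutiglabridin libraries, 328780 to 372405 in semaglutide libraries and 318267 to 352578 in vehicle libraries. The ratio of the cytosolic sum to this mitochondrial sum was 3.78 ± 0.230 in vutiglabridin livers, 3.87 ± 0.203 in semaglutide livers and 3.73 ± 0.176 in vehicle livers. The median change of the cytosolic genes minus that of the mitochondrial genes was −0.01 for vutiglabridin against vehicle, 0.03 for semaglutide against vehicle and 0.00 between the drugs. The median log2 level of the cytosolic genes minus that of the mitochondrial genes in each liver, by contrast, was 0.917 ± 0.119 in vutiglabridin livers, 1.102 ± 0.139 in semaglutide livers and 0.947 ± 0.117 in vehicle livers (SD, n = 8 each). By this measure semaglutide livers were higher by more than 1 SD, and the groups overlapped, at 0.713 to 1.13, 0.943 to 1.37 and 0.759 to 1.11 in the same order. These sums and medians were chosen with the members known and carry no test.

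**Figure D4:**
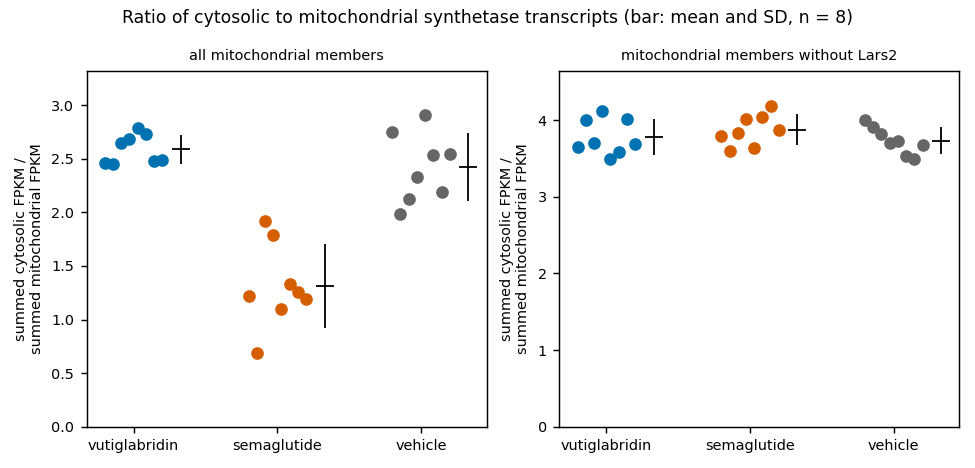
Summed cytosolic over summed mitochondrial synthetase FPKM, 1 point per liver with the mean and SD (n = 8) beside it, with all mitochondrial genes at left and without Lars2 at right. At left semaglutide livers average 1.31 against 2.42 in vehicle livers. At right the groups overlap, and all livers lie between 3.49 and 4.19.

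The median synthetase gene of each class varied somewhat less between livers of the same group than the median tested gene. The coefficient of variation within groups had a median of 10.5% over the cytosolic and 12.0% over the mitochondrial genes, beside 13.9% over all tested genes. The genes were not matched by level for this. Of the 37 tested genes, Iars2 was the steadiest at 5.34%, followed by Hars at 5.80% and Nars at 6.22%. Lars2 varied the most at 37.8%, followed by Pars2 at 23.6%.

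Cytosolic members also tended to vary together from liver to liver. After subtracting each group's mean, the 171 pairs of cytosolic genes had a median Pearson r of 0.28 over the 24 samples, and 134 pairs were positive. The 120 mitochondrial pairs had a median of 0.04, the pairs across compartments 0.10 and all pairs of tested genes 0.00. The highest pairs were Sars with Vars (0.83), Cars with Mars (0.78) and Mars with Aars (0.76). Pairs inside the multisynthetase complex had a median of 0.20. Vutiglabridin replicate 4 stood far above the rest of its group in 4 cytosolic genes (Mars, Vars, Yars and Wars). Its cytosolic sum of 309 FPKM was the highest of the 24 samples. Without this sample, an omission chosen after seeing the data, the cytosolic median was 0.25. The values of a pair come from the same libraries and share their depth and base composition, so these correlations are descriptions without a test.

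**Figure D5:**
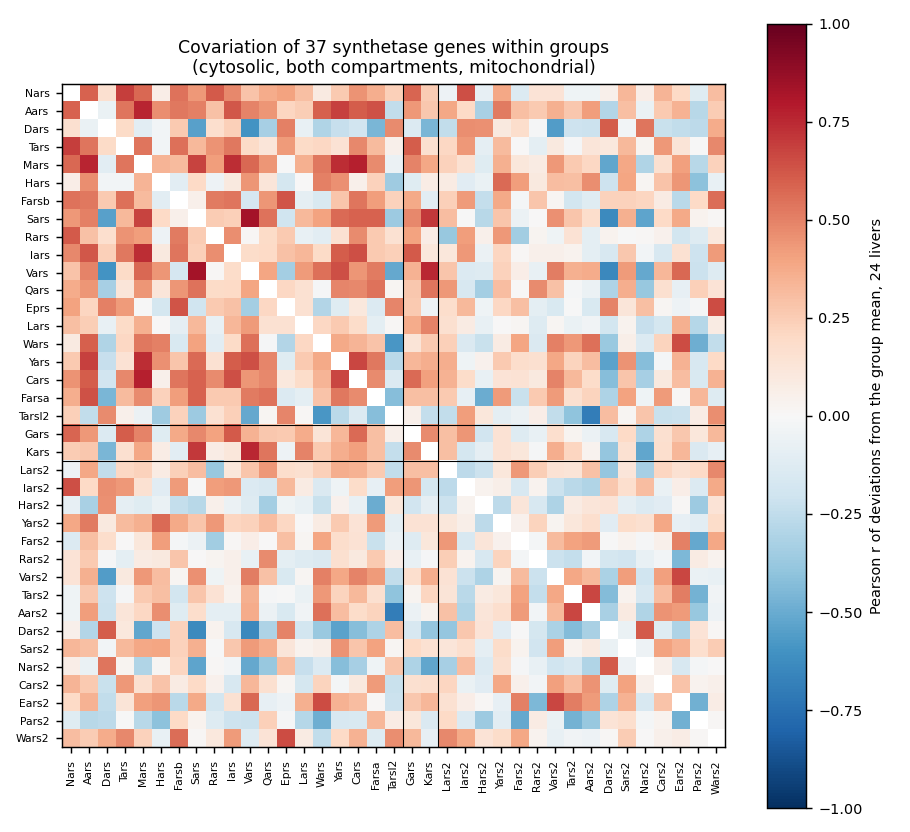
Pearson r between the deviations of synthetase genes from their group mean over 24 livers, with cytosolic genes first, then Gars and Kars, then mitochondrial genes in the order of their level, and lines between the classes. The cytosolic block is mostly red (median 0.28), with Dars and Tarsl2 as bluer rows, and the mitochondrial block is mixed (median 0.04).

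Genes that work beside the synthetases were read from lists that hold their partners and regulators. Of 17 tested partners (scaffolds of the multisynthetase complex, editing and amidation enzymes), 0 were higher and 1 lower with vutiglabridin (median 0.02), and 1 higher and 4 lower with semaglutide (median −0.03), where 15.3% and 27% of all genes passed in either direction. Gatb, a subunit of the enzyme that completes glutaminyl-tRNA in mitochondria, where mammals have no glutaminyl-tRNA synthetase, had 10.5 ± 1.26 FPKM in semaglutide livers and 12.5 ± 0.794 in vehicle livers (SD, n = 8 each; log2 difference −0.24, limma adjusted p = 0.00288). Aimp2, a scaffold of the multisynthetase complex, differed by −0.21 (adjusted p = 0.0323). Between the drugs, Gatb was the 1 partner that passed, higher in vutiglabridin livers (0.20, adjusted p = 0.012).

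The amino acid response list did not move one way. Of 28 tested genes, 3 were higher and 4 lower with vutiglabridin (median −0.01), and 2 higher and 4 lower with semaglutide (median −0.03), beside the same 15.3% and 27% of all genes. Shmt2, a mitochondrial serine enzyme, had 91.1 ± 5.63 FPKM in vutiglabridin livers and 74.1 ± 6.66 in vehicle livers (SD, n = 8 each; log2 difference 0.30, limma adjusted p = 0.000806). Lower with vutiglabridin were Mthfd1l, a mitochondrial folate enzyme (−0.55, adjusted p = 0.00192), and Aldh18a1, an enzyme of proline synthesis (−0.40, adjusted p = 0.0125). With semaglutide, Vldlr, a lipoprotein receptor, was higher by 0.73 (adjusted p = 1.89e-07), Slc38a2, an amino acid carrier, by 0.51 (adjusted p = 0.00248), and Ddit4, an inhibitor of mTORC1, lower by 0.77 (log2 difference −0.77, adjusted p = 0.0119). Asns, the asparagine synthetase that is a standard ATF4 target, was too low to be tested, at 0.130 FPKM in vutiglabridin livers, 0.278 in semaglutide livers and 0.305 in vehicle livers. Trib3, another target, was at 5.59 ± 1.88, 5.85 ± 2.26 and 5.64 ± 1.11 FPKM in the same order. Between the drugs, where 24.4% of all genes passed, 5 of the 28 were higher and 2 lower in vutiglabridin livers. Correlations of the cytosolic synthetases with this list had a median of 0.18, and of 0.10 without vutiglabridin replicate 4.

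Translation and tRNA genes gave mixed counts, to be read beside the 15.3% of all genes that passed with vutiglabridin, 27% with semaglutide and 24.4% between the drugs. Of 21 factors of mitochondrial translation and transcription, 1 was higher and 0 lower with vutiglabridin (median 0.03), and 3 were higher and 1 lower with semaglutide (median −0.03). Lrpprc, which stabilises mitochondrial mRNA, had 18.4 ± 1.80 FPKM in semaglutide livers and 15.2 ± 1.06 in vehicle livers (SD, n = 8 each; 0.25, limma adjusted p = 0.00643). Tfb2m, a factor of mitochondrial transcription, was higher with both drugs, by 0.29 with each (adjusted p = 0.0463 with vutiglabridin and 0.0315 with semaglutide). Of 33 cytosolic translation factors, 3 were higher and 0 lower with vutiglabridin, and 7 higher and 1 lower with semaglutide (medians 0.06 and 0.04). Eif3a, the largest subunit of initiation factor 3, had 25.5 ± 2.37 FPKM in semaglutide livers and 17.4 ± 0.777 in vehicle livers (0.52, adjusted p = 1.57e-06). Of 54 genes of tRNA processing and modification, 1 was higher and 0 lower with vutiglabridin, and 3 higher and 4 lower with semaglutide (medians 0.05 and −0.03). That 1 gene was Hsd17b10, a subunit of mitochondrial RNase P (0.33, adjusted p = 0.0125). Between the drugs, 5 mitochondrial factors were higher and 0 lower in vutiglabridin livers, 4 cytosolic factors higher and 5 lower, and 5 tRNA processing genes higher and 2 lower. The drug comparisons with vehicle share the vehicle samples, so values given for both are not independent. Counts and medians of the lists, unlike those of the synthetases, were not recomputed under TPM. There the median of all genes with vutiglabridin against vehicle moved from 0.01 to −0.13, so small list medians depend on the scale. Over the alternatives, repeats of the calls of leading list genes were kept 2112 times and lost 97 times.

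Some values could be touched by neighbouring genes. Exons of 15 of the 38 members overlap those of another gene, 8 of them over more than 5% of their length. Iars2 shares 22.9% with Rab3gap2 on the opposite strand and Aars 14.3% with Exosc6 on the same strand. No stretch of 100 bases occurred in another gene for 26 of the 38 members. Whether counting used the strand is not given in the sources used here, so reads of overlapping genes cannot be told apart.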

How the data were processed

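The authors deposited 1 FPKM value per gene and sample for 24 mouse liver libraries. Per the labels' protocols these were stranded mRNA libraries read as pairs. Per the submitters' processing notes the tools were HISAT2, StringTie and DESeq2, with no version, role or genome build given in the sources used here. Each of the 14293 identifiers, with its symbol, was found in GENCODE M21 (GRCm38), which gave coordinates and exon lengths. FPKM divides by library and exon length, so very abundant genes can lower the rest.

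From the deposited values, log2(FPKM + 1) was taken for the 11562 genes that reached 0.5 FPKM in 8 samples or more. This scale understates the change of low genes. One limma model (limma 3.58.1, R 4.3.3, mean trend, 2-sided) was fitted to all 3 groups, with Benjamini-Hochberg adjustment over all genes within a comparison and a threshold of 0.05, and was tested on simulated data. The depth was read from the step between low values of genes with short exons, all of which lay within 0.2 of whole fragments. Alternatives were 0.1 and 0.5 as pseudocount, no filter or a mean of 1 FPKM, TPM scaling, quantile normalization, 2 groups only, a robust spread, GC and length trends, the replicate number as a block, and each sample left out.

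The members and lists were chosen with earlier results of these data known. Values in full go to members with adjusted p under 0.05, up to 8 per comparison, or the lowest p of each class where none passed, and the 3 highest and lowest members by level are named. Of other lists up to 3 genes with the lowest p are named, and Asns, Trib3, Naxd and the genes with the promoter motif were picked after their values were seen. One gene of the partner list and one promoter window are not reported here. Handling used Python 3.11.15, pandas 2.3.3 and numpy 2.4.6.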

Additional observations from a re-analysis of the deposited data

Results flagged for a closer look

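In 10 of the 114 sets of 8 values (38 genes in 3 groups), 1 sample stood far from the other 7 by Dixon's ratio of gap to range. Chance flags about 1 in 20 sets. In vutiglabridin livers, replicate 4 was the high sample for Mars (28.36 FPKM), Vars (11.27), Yars (9.22) and Wars (8.73), 4 cytosolic genes. Replicate 1 was high for Wars2 (2.04 FPKM) and replicate 7 for Pars2 (2.38 FPKM), both mitochondrial. Replicate 7 was the shallowest library, at 5.98 M fragments, and the Pars2 values of the vutiglabridin group imply only 33 to 68 fragments. In semaglutide livers, replicate 2 was high for Lars2 (274.21 FPKM, the next being 156.2) and for Pars2 (1.86 FPKM), replicate 7 was high for Sars (20.98 FPKM) and replicate 8 was low for Sars2 (2.37 FPKM). No vehicle sample stood apart in this way.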

How the results depend on the processing

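Counts of called synthetase genes and median differences between the classes were compared with their values under each alternative. Of these, 296 stayed within 1.5 times the reported count or within 0.13 of the reported median difference, and 28 did not. The reported median differences (−0.01 and 0.03 for vutiglabridin and semaglutide against vehicle, 0.00 between the drugs) were smaller than 0.13. A change of their sign therefore also counted as staying, and their part of the 296 says little. TPM scaling gave 7 calls for vutiglabridin against vehicle (5 cytosolic, 1 mitochondrial) and 3 between the drugs (1 cytosolic, 2 mitochondrial), and turned Eprs with vutiglabridin to −0.023. Quantile normalization gave 1 call for vutiglabridin against vehicle, the cytosolic Tarsl2, and 0 cytosolic calls between the drugs (2 as reported). Only the 2 groups compared left 1 cytosolic call for semaglutide against vehicle and 1 between the drugs. Removing GC and length trends gave 9 calls for semaglutide against vehicle (2 higher, 7 lower, 5 of them among the 6 reported, without Nars) and 9 between the drugs (8 higher, 1 lower, 4 cytosolic). With the replicate block as well, it gave 1 call for vutiglabridin against vehicle (1 cytosolic, Dars) and 4 cytosolic calls for semaglutide, and the call of Aars2 with semaglutide was lost (adjusted p = 0.0582).

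Leaving out 1 sample gave 4 to 6 calls for semaglutide against vehicle (cytosolic 1 to 2, mitochondrial 3 to 4), 4 to 8 between the drugs (cytosolic 0 to 3, mitochondrial 4 to 5) and 0 for vutiglabridin against vehicle. Median differences between the classes ran from 0.02 to 0.06, −0.03 to 0.03 and −0.03 to 0.02 in the same order. Lars2 and Cars2 in both comparisons, and Wars with semaglutide, passed in all 27 alternatives.

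The labels repeat the numbers 1 to 8 in each group. Same-numbered samples correlated over 0.1 in 6, 2 and 3 of 8 pairs in the 3 comparisons and best with their own number in 2, 1 and 1, so the numbers were not taken to pair samples. The replicate block alone left the members' counts at 0, 6 and 6 and gave 1723, 3073 and 2748 calls over all genes. Depth limits the low genes, such as Mars2, Pars2 and Wars2.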
